A study of Homo sapiens with 10 samples.

Results

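MHC class I molecules carry peptides from inside the cell to its surface, where CD8+ T cells and natural killer cells read them. The genes described here are the 8 rows of the deposited table whose symbol is HLA-B, HLA-C, HLA-E, HLA-F, B2M, TAP1, TAP2 or TAPBP, out of 12540 genes, and all 8 entered the tests. The cells were SRA01-04, a human lens epithelial line that grows through a viral large T antigen, so every value describes an immortalised line and not lens tissue. One group received the empty plasmid and the other a plasmid expressing RORα, the nuclear receptor that RORA encodes, and each group held 5 libraries, called EV1 to EV5 and OE1 to OE5. From 48 h after transfection both groups were given 10 µM selenite for 24 h. No group without selenite or without transfection was analysed here, so no value gives the effect of selenite. Nothing in the labels says that replicates were grown apart, so p-values measure only the spread between these samples.

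A class I molecule consists of a heavy chain and the light chain B2M. HLA-B and HLA-C encode classical heavy chains, while HLA-E mainly displays leader peptides of other heavy chains and HLA-F is a less common non-classical chain. Peptides cut by the proteasome are pumped into the endoplasmic reticulum (ER) by TAP1 and TAP2, which pair to form the transporter, and tapasin, the product of TAPBP, bridges the transporter and the empty heavy chain. In many cell types the genes of this pathway are induced by interferons and by NF-κB, and NLRC5 is the transactivator dedicated to class I genes.

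The promoter letters known as class I control elements are shown first. RefSeq promoter windows (250 bases before to 50 bases after the start, GRCh38.p14) were found for 7 of the 8 genes, all except HLA-E, and TAP1 had 2 windows. Each line gives a part of the window, 5′ to 3′ on the gene's own strand, chosen from an NF-κB or interferon core match to the last CCAAT match for the heavy chains and around the interferon core of the other genes. Further matches lie outside the parts shown: NF-κB pattern matches in HLA-C, TAP1, TAP2 and TAPBP, and CCAAT matches in HLA-C, B2M and TAP1. Capitals mark letters that match the NF-κB pattern (GGG, any 5 bases, CC), the interferon response core (GAAA, any 2 bases, GAAA), CCAAT or GTGAAACT, on either strand, and neighbouring matches may share bases.
HLA-B: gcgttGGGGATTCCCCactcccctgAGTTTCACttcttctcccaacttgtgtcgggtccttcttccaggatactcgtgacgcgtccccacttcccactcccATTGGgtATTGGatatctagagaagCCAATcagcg
HLA-C: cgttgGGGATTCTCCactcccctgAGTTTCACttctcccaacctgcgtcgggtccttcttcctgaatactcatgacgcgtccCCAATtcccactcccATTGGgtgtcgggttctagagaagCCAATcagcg
HLA-F: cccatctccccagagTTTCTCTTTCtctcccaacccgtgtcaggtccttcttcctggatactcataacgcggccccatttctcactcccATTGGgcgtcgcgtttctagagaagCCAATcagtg
B2M: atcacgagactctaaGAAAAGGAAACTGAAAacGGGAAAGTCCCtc
TAP1: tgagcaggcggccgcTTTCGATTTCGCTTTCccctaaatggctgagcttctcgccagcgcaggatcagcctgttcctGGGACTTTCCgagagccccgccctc
TAP2: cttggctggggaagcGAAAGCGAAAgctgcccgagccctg
TAPBP: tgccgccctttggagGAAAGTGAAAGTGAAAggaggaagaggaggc

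The stretches lie at chr6:31357226-31357361 for HLA-B (minus strand), chr6:31272139-31272269 for HLA-C (minus), chr6:29723263-29723386 for HLA-F (plus) and chr15:44711358-44711403 for B2M (plus). Those of the loading genes lie at chr6:32853752-32853853 for TAP1, chr6:32838773-32838812 for TAP2 and chr6:33314068-33314113 for TAPBP, all on the minus strand. The interferon core matched in 5 of the 7 genes, HLA-F, B2M, TAP1, TAP2 and TAPBP, and in 3.57% of 35116 RefSeq promoter windows. HLA-B and HLA-C had no match to that core and instead shared GTGAAACT, which stands in 0.883% of windows and was added to the search after the windows were seen. At the NF-κB pattern the 11 bases GGGGATTCCCC of HLA-B and GGGGATTCTCC of HLA-C differ by C9T, counted from 1 at the first G with the base of HLA-B first. The NF-κB pattern matched in every gene found except HLA-F, but it is loose and stands in 58.7% of all windows. CCAAT, the NF-Y motif, was found in HLA-B, HLA-C, HLA-F, B2M and TAP1 and in 34.6% of windows. TTCNNNGAA, a STAT motif, matched in the second window of TAP1 alone and in 7.66% of windows. Neither TGACGT, the CREB/ATF motif (7.98% of windows), nor AGGTCA, the core motif that ROR proteins bind (13.8%), was found in these windows as exact letters. HLA-B and HLA-C hold TGACGC, which differs from TGACGT in its last base and was not counted. A match describes letters and is not evidence of a bound factor.

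All 8 genes were higher with RORα than with the empty plasmid, by 1.27-fold for TAPBP to 2.56-fold for HLA-F, and no gene's groups overlapped. The count of 8 is read against a broad response, since 28.6% of the 12520 genes tested were called higher and 27.5% lower (edgeR quasi-likelihood test, Benjamini-Hochberg adjusted p under 0.05). All 5 RORα libraries lay above all 5 empty plasmid libraries for 20.8% of genes tested. The median log2 fold change was 0.84 over the 8 genes and 0.00 over all genes tested. Their summed level was 1477 to 1542 CPM (read counts scaled to a common library total) in the empty plasmid libraries and 2696 to 2813 CPM in the RORα libraries. These are bulk libraries, so more cells carrying a transcript and more transcript per cell cannot be told apart.

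The targeted gene checked the labels. RORA stood at 16.4, 14.8, 17.0, 11.2 and 15.5 CPM in EV1 to EV5 and at 41.7, 42.5, 39.4, 44.0 and 38.6 CPM in OE1 to OE5. Its log2 fold change was 1.46 (standard error 0.073; adjusted p = 4.35e-20 in edgeR), and counts per gene cannot separate plasmid from chromosomal RORA transcripts. Library totals ran from 17475342 to 21956761 counts and the biological coefficient of variation over all genes was 4.57%.

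Among the heavy chains, HLA-B had the highest count with RORα. HLA-B (ENSG00000234745, chromosome 6, 31269491 to 31357188, minus strand, GRCh38) stood at 136, 117, 134, 138 and 138 CPM in EV1 to EV5 and at 310.2, 274, 342, 302 and 295 CPM in OE1 to OE5. The lowest RORα library lay well above the highest empty plasmid library, while EV2 was 12.0% below its group's mean. HLA-B rose from 132.7 ± 9.10 to 304.5 ± 24.8 CPM (SD, n = 5 per group), 2.29-fold with a 95% interval of 2.16 to 2.44, and edgeR gave an adjusted p of 2.19e-24. Of all genes tested, 280 (2.24%) had a larger rise.

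HLA-C, whose product is the main ligand of killer-cell immunoglobulin-like receptors, rose less. HLA-C (ENSG00000204525, chromosome 6, 31268749 to 31272130, minus strand) stood at 80.1, 78.6, 76.2, 81.0 and 82.5 CPM in EV1 to EV5 and at 117, 150.4, 142, 129 and 143 CPM in OE1 to OE5. Its RORα libraries were the more scattered group, with a coefficient of variation of 9.74% against 3.00% in the empty plasmid libraries. The rise was 1.71-fold (1.60 to 1.83), or 0.77 on the log2 scale (standard error 0.048; adjusted p = 3.08e-17 in edgeR).

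HLA-E (ENSG00000204592, chromosome 6, 30489467 to 30494205, plus strand) encodes the ligand of the CD94/NKG2A receptor of natural killer cells. Its levels were 175, 167, 170.0, 185 and 171 CPM in EV1 to EV5 and 258, 248, 279, 257 and 281 CPM in OE1 to OE5. The groups were far apart relative to their spread, with means of 174 ± 6.94 and 264 ± 14.5 CPM (SD, n = 5 per group). The rise was 1.52-fold (1.45 to 1.60; edgeR adjusted p = 1.255e-17). In the empty plasmid libraries HLA-E had more counts than HLA-B, and with RORα HLA-B had more counts than HLA-E in every library.

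HLA-F (ENSG00000204642, chromosome 6, 29722775 to 29738528, plus strand) was the scarcest of the genes and rose by the largest factor. It had 2.77, 4.04, 3.34, 2.80 and 3.53 CPM in EV1 to EV5, from 49 to 81 counts a library. With RORα it had 9.58, 8.23, 8.92, 8.57 and 7.06 CPM, from 139 to 210 counts a library. The lowest RORα library exceeded the highest empty plasmid library, and the fold was 2.56 with a wide interval of 2.14 to 3.06 (edgeR adjusted p = 7.92e-12). Under limma on log2(FPKM + 1), which understates changes of low values, the log2 difference of HLA-F was 0.39 in place of 1.36.

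Heavy chain genes resemble each other in sequence, and the classical ones vary most between people. Reads were aligned to a single reference, so the split of counts among the heavy chain genes is uncertain. Overlapping annotation adds to this, since no strand-marking step is named. In GENCODE 29, 28.5% of the exon bases of HLA-F lie under other genes (pseudogenes and HLA-F-AS1) and 18.9% of those of HLA-B, mostly under a pseudogene on the opposite strand. The HLA-B and HLA-C models also share exon bases on the same strand, 1.1% of those of HLA-B and 1.4% of those of HLA-C.

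B2M, the light chain shared by all class I molecules, lies outside the MHC (ENSG00000166710, chromosome 15, 44711487 to 44718877, plus strand) and shares no exon base with another gene. It stood at 921, 902, 896, 899.6 and 887 CPM in EV1 to EV5 and at 1711, 1698, 1693, 1716 and 1633 CPM in OE1 to OE5. It was the steadiest gene of the group, with coefficients of variation of 1.40% and 1.98%. B2M rose from 900.9 ± 12.6 to 1690.5 ± 33.4 CPM (SD, n = 5 per group), 1.88-fold with an interval of 1.81 to 1.94 (edgeR adjusted p = 2.99e-29).

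The transporter subunits rose unequally. TAP1 (ENSG00000168394, chromosome 6, 32845209 to 32853978, minus strand) stood at 68.8, 72.6, 74.3, 79.4 and 77.6 CPM in EV1 to EV5 and at 142, 137, 151, 139 and 145 CPM in OE1 to OE5. It rose 1.92-fold (1.81 to 2.03; edgeR adjusted p = 3.91e-22), or by 0.94 on the log2 scale (standard error 0.041). TAP2 (ENSG00000204267, chromosome 6, 32821833 to 32838780, minus strand) stood at 39.1, 36.8, 36.5, 33.8 and 32.4 CPM in EV1 to EV5 and at 47.3, 51.9, 51.0, 49.1 and 49.6 CPM in OE1 to OE5. The groups of TAP2 were separated by a narrower gap, and its rise was 1.39-fold (1.30 to 1.50; edgeR adjusted p = 4.18e-10), with 1289 genes (10.3%) rising more. In GENCODE 29, 32.3% of the exon bases of TAP2 are shared with another gene model on its strand, AL669918.1, and 9.49% of those of TAP1 with the antisense gene PSMB8-AS1.

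TAPBP (ENSG00000231925, chromosome 6, 33299694 to 33314387, minus strand) changed least. Its levels were 106, 99.5, 109, 123 and 114 CPM in EV1 to EV5 and 142, 135, 146, 136 and 142 CPM in OE1 to OE5. EV4 came closest to the RORα libraries. TAPBP rose from 110.1 ± 8.63 to 140.1 ± 4.695 CPM (SD, n = 5 per group), 1.27-fold (1.20 to 1.35; edgeR adjusted p = 3.79e-09), and 1881 genes rose more.

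**Figure D1:**
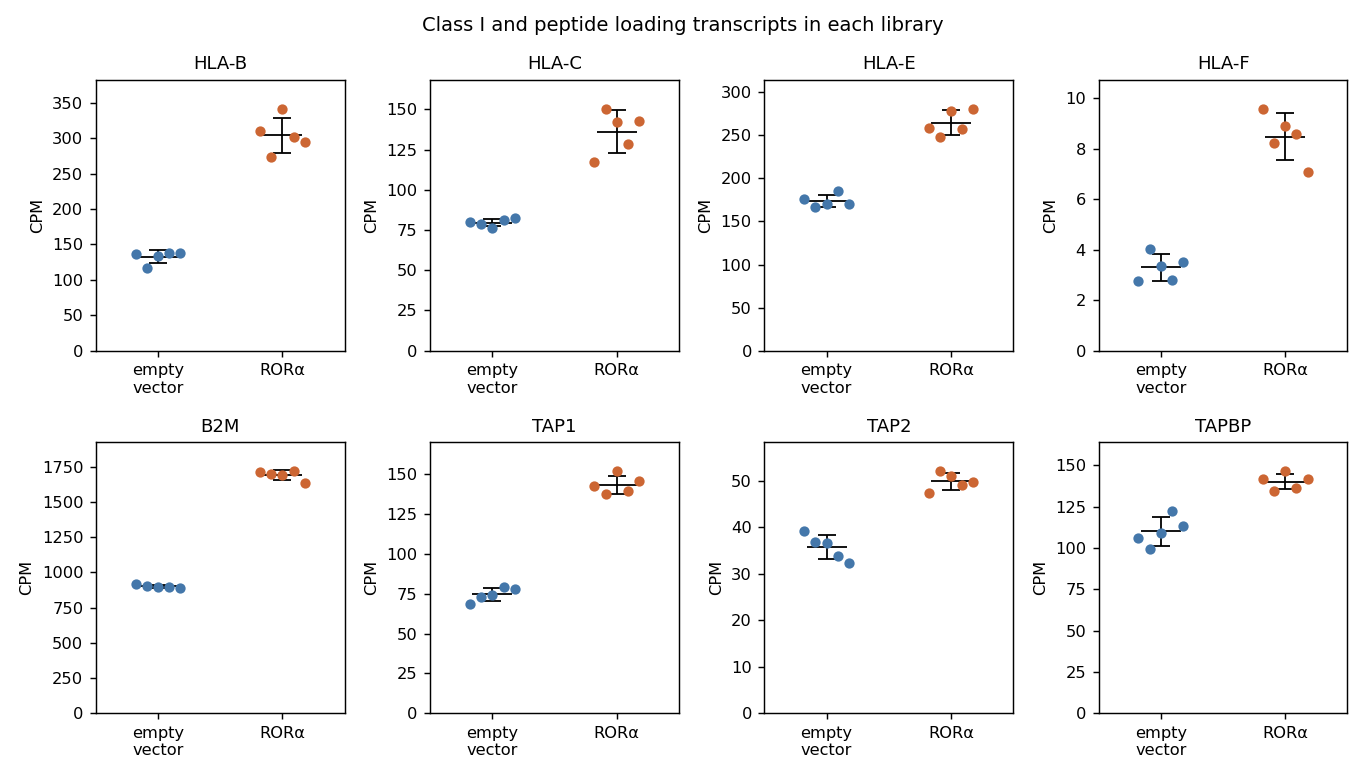
Level of each gene in CPM (linear axis from 0) in the 5 empty plasmid and 5 RORα libraries, a point per library, with the group mean and an SD bar. In each panel all RORα points lie above all empty plasmid points, and the fold between group means was largest for HLA-F and HLA-B and smallest for TAPBP.

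Whether the genes rose by different factors was tested with 6 ratios of counts within a library, in which depth cancels, by exact two-sided permutation tests of the log2 ratio, 5 against 5 libraries. The HLA-B to HLA-C ratio went from 1.67 ± 0.105 to 2.26 ± 0.321 and the HLA-B to HLA-E ratio from 0.764 ± 0.0430 to 1.15 ± 0.0719 (SD, n = 5 per group; exact p = 0.0079 each, Benjamini-Hochberg adjusted p = 0.0095). HLA-B thus gained on both chains. HLA-B also gained on the light chain, its ratio to B2M going from 0.147 to 0.18 (exact p = 0.0079, adjusted p = 0.0095). The value 0.0079 is the smallest that 5 against 5 libraries can give.

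The HLA-B to HLA-F ratio was 49.2, 28.9, 40.1, 49.4 and 39.2 in EV1 to EV5 and 32.4, 33.2, 38.3, 35.2 and 41.9 in OE1 to OE5. These groups overlapped and no difference was detected (log2 difference -0.17; exact permutation p = 0.294, adjusted p = 0.294). In the loading machinery, the TAP1 to TAP2 ratio went from 2.10 ± 0.268 to 2.88 ± 0.145 and the TAP1 to TAPBP ratio from 0.679 ± 0.0334 to 1.02 ± 0.0117 (SD, n = 5 per group; exact permutation p = 0.0079 each, adjusted p = 0.0095). TAP1 therefore rose by a larger factor than its partner subunit and than tapasin, with no overlap of libraries in either ratio.

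**Figure D2:**
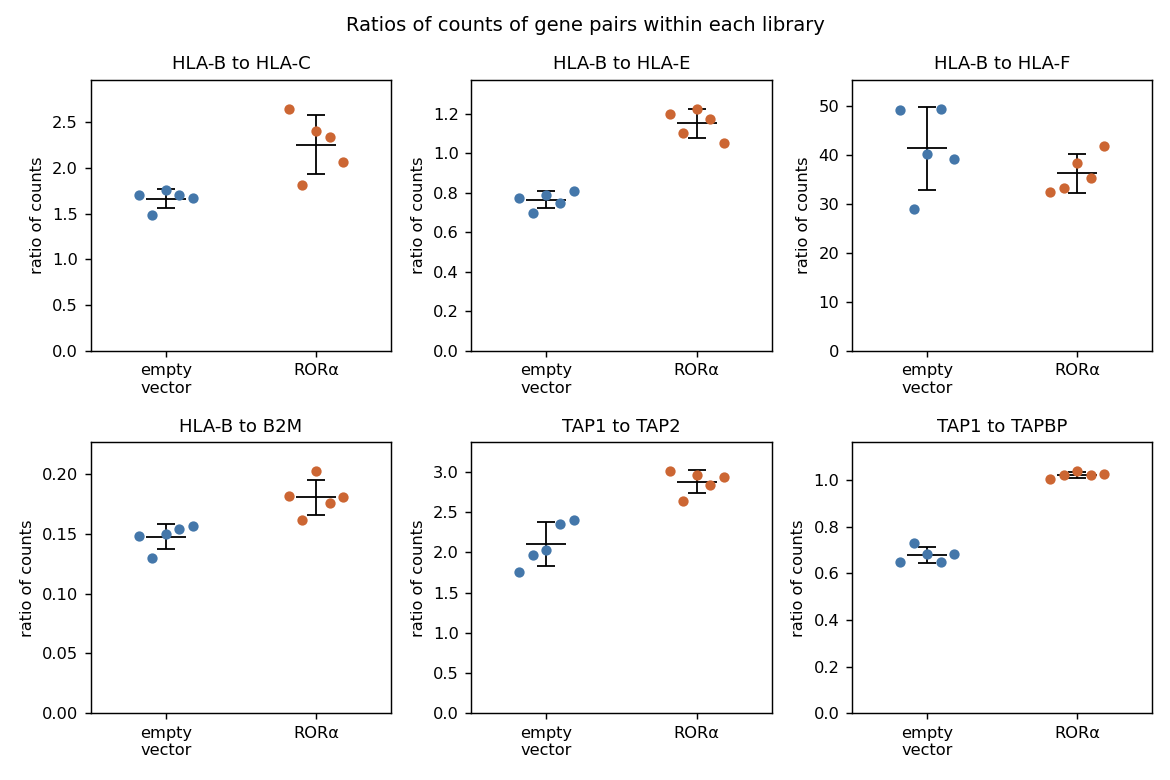
Ratio of the counts of paired genes within each library (linear axes from 0), a point per library, with the group mean and an SD bar. The groups separate in 5 panels, most tightly for TAP1 to TAPBP, where the RORα libraries span 1.00 to 1.04 against 0.648 to 0.730, and overlap for HLA-B to HLA-F.

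Levels of different genes were compared per kilobase of annotated exon (GENCODE 29 exon union), in CPM per kilobase. B2M was the most abundant, at 148 in the empty plasmid and 278 in the RORα libraries. Next came HLA-E at 58.4 and HLA-B at 43.5 with the empty plasmid, an order that was inverted with RORα, at 88.9 for HLA-E and 99.8 for HLA-B. HLA-C followed at 31.8 and 54.4, above TAPBP at 21.8 and 27.7 and TAP1 at 15.5 and 29.8. TAP2 at 5.59 and 7.79 and HLA-F at 0.759 and 1.95 were the lowest. With the length of the longest coding transcript instead, HLA-B led HLA-E in both groups (122 against 66.8, and 280 against 102 CPM per kilobase), because the annotated HLA-B transcript used holds coding bases alone (1089 bases). With that length TAPBP (58.3) also lay above HLA-C (51.3) with the empty plasmid. The mean FPKM that the authors deposited gave another order. HLA-E (41.4 with the empty plasmid and 63.3 with RORα) lay above HLA-B (4.88 and 11.3) in both groups, without an inversion. HLA-C (7.05 and 12.1) also lay above HLA-B, and TAP1 (3.03 and 5.84) above TAPBP (1.56 and 2.00). The order of these genes, and the inversion of HLA-E and HLA-B, therefore depend on the length used.

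As a share of the summed length-scaled level of HLA-B, HLA-C, HLA-E and HLA-F, HLA-B went from 32.3% to 40.7% and HLA-E from 43.4% to 36.3% (exon union). The share of HLA-C was 23.7% and 22.2%, and that of HLA-F 0.568% and 0.798%. With transcript lengths HLA-B went from 50.3% to 58.9% and HLA-E from 27.6% to 21.4%. The size of the shares thus depends on the length, while HLA-B and HLA-E kept their direction under both lengths. Shares from the FPKM that the authors deposited, which imply other lengths, were not computed, so the direction may differ there. The shares given are of RNA, and protein was not measured.

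Of the other class I and class I-like chains, 6 of 9 listed were tested. None fell, 3 rose and 3 missed the threshold (median log2 fold change 0.26). Among all genes tested, 28.6% were called higher and 27.5% lower. MR1, which presents vitamin B metabolites to MAIT cells, rose from 6.21 to 9.99 CPM (edgeR adjusted p = 4.23e-06). MICA and MICB, stress ligands of the natural killer receptor NKG2D, rose from 35.5 to 47.6 and from 60.2 to 89.1 CPM. HFE, FCGRT and PROCR did not pass: HFE, a regulator of iron uptake, had a log2 fold change of 0.10, FCGRT, the IgG recycling receptor, 0.09, and PROCR, the protein C receptor, 0.03.

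The NKG2D ligand list shares MICA and MICB. Among the 6 of its 8 genes that were tested, 3 went up and 1 down past the threshold (median 0.21). For all genes tested the shares were 28.6% up and 27.5% down. ULBP1 rose from 3.66 to 8.26 CPM (log2 fold change 1.16, edgeR adjusted p = 1.68e-09), while ULBP3 fell from 6.08 to 4.90 CPM (adjusted p = 0.0307) with overlapping groups. ULBP2 and RAET1G had log2 fold changes of 0.01 and -0.09.

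The other partners of peptide loading and ER folding did not move as a block. All 11 were tested, and the outcome was 3 risen, 5 fallen and 3 short of the threshold (median log2 fold change -0.04). The share that rose was near the 28.6% called higher among all genes, and 27.5% of all genes were called lower. TAPBPL, the tapasin-related peptide editor TAPBPR, rose from 13.8 ± 1.58 to 24.9 ± 1.76 CPM (SD, n = 5 per group; log2 fold change 0.84, edgeR adjusted p = 2.29e-12). ERAP1 and ERAP2, the ER aminopeptidases that trim peptides to length, rose from 40.1 to 64.6 and from 137 to 199 CPM (adjusted p = 3.06e-15 and 2.78e-14).

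The genes that fell were CALR, PDIA3, UGGT1, SEC61A1 and GANAB. CALR, the lectin chaperone calreticulin of the loading complex, fell from 851 ± 19.1 to 781 ± 18.6 CPM (SD, n = 5 per group; log2 fold change -0.12, edgeR adjusted p = 0.000106). PDIA3, the thiol oxidoreductase ERp57 that binds tapasin, fell from 358 to 326.5 CPM (adjusted p = 0.000221). UGGT1, which reglucosylates misfolded glycoproteins, fell from 188 to 148 CPM (log2 fold change -0.34), and SEC61A1, the core of the protein-import channel, from 407 to 345 CPM (log2 fold change -0.24). GANAB, a glucosidase II subunit, fell by 0.11 on the log2 scale with overlapping groups. CANX, PRKCSH and BCAP31 did not pass, with log2 fold changes of 0.02, 0.02 and -0.04.

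Upstream of the transporter, all 6 genes of the immunoproteasome and its activator rose (median log2 fold change 0.55), 5 of them with no overlap of libraries. Over all genes tested, 28.6% were called higher, and 20.8% had every RORα library above every empty plasmid library. PSMB9, an interferon-inducible catalytic subunit whose gene neighbours TAP1, stood at 16.9, 14.6, 16.9, 16.4 and 15.6 CPM in EV1 to EV5 and at 32.5, 33.3, 34.1, 31.6 and 33.1 CPM in OE1 to OE5. It rose 2.05-fold (edgeR adjusted p = 1.62e-17). PSMB10 rose from 2.08 to 4.69 CPM and PSMB8 from 31.3 to 45.8 CPM, and 34.8% and 20.6% of their exon bases lie under other genes. The activator subunits PSME1 and PSME2 rose from 120 to 176 and from 94.8 to 124 CPM, and POMP, the proteasome assembly factor, had a log2 fold change of 0.13 with overlapping groups (edgeR adjusted p = 0.00376).

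**Figure D3:**
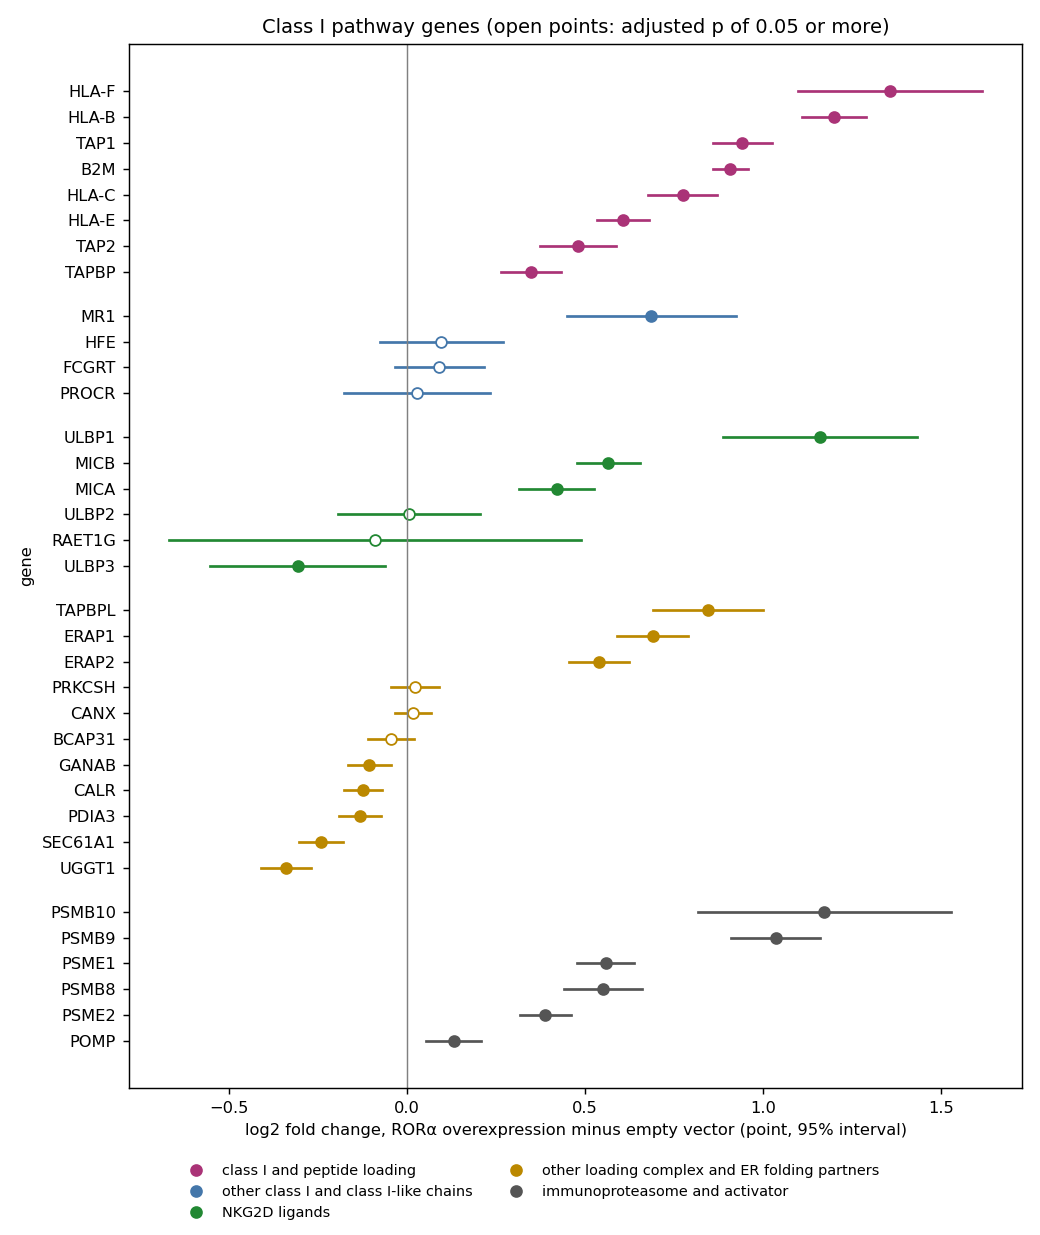
Log2 fold change (RORα minus empty plasmid, edgeR) with its 95% interval for the class I and peptide loading genes and 4 related lists, with MICA and MICB drawn among the NKG2D ligands. Filled points passed an adjusted p of 0.05. The immunoproteasome genes all lie to the right of 0, while the ER folding partners reach from 0.84 for TAPBPL to -0.34 for UGGT1.

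Of 16 transcription factor genes known from class I promoters, 11 went up and 3 down past the threshold (median log2 fold change 0.24). Beside this, 28.6% of all genes tested were called higher and 27.5% lower. IRF1, an interferon-inducible activator, stood at 89.1, 82.3, 80.6, 87.0 and 86.2 CPM in EV1 to EV5 and at 157, 166, 177, 165 and 176 CPM in OE1 to OE5, which is 0.98 on the log2 scale (standard error 0.039; edgeR adjusted p = 2.81e-23). NLRC5 stood at 30.04, 31.3, 28.97, 30.6 and 33.1 CPM in EV1 to EV5 and at 47.3, 47.6, 49.1, 41.6 and 48.4 CPM in OE1 to OE5, a 1.52-fold rise (edgeR adjusted p = 2.66e-12). Neither gene's groups overlapped. NFKB1, the p105 precursor of an NF-κB subunit, rose from 88.5 to 139 CPM, and RELA, its usual partner, by a smaller log2 fold change of 0.21.

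Of the interferon signalling factors, STAT2 rose from 52.3 to 78.0 CPM (log2 fold change 0.57, edgeR adjusted p = 2.20e-14). IRF9, which binds STAT2 in the ISGF3 complex, was low at 2.31 and 2.27 CPM and did not pass (edgeR adjusted p = 0.919). Of the annotated exon bases of IRF9, 48.4% lie under another protein-coding gene model on its strand. Whether this overlap lowered the counts of IRF9 was not tested. IRF2, a relative of IRF1, rose with a log2 fold change of 0.34. In the RFX complex, which binds the X box, RFXAP rose from 8.68 to 13.7 CPM, and RFXANK and RFX5 rose with log2 fold changes of 0.28 and 0.18, with overlapping groups for RFX5. In the NF-Y trimer NFYA fell from 65.6 to 48.9 CPM (log2 fold change -0.42) and NFYB by 0.23 on the log2 scale, and NFYC did not pass. CREB1 rose with a log2 fold change of 0.19 and overlapping groups, while ATF1 fell by 0.23. CIITA, the class II transactivator, was scarce, going from 1.14 ± 0.376 to 1.88 ± 0.372 CPM with overlapping groups (SD, n = 5 per group; edgeR adjusted p = 0.0142).

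The class II genes gave a comparison with the other presentation pathway. Of 14 listed, 5 were tested, and 4 of these rose and 1 did not pass (median log2 fold change 0.82). The share called higher over all genes tested was 28.6%. CTSS, the cathepsin that degrades the class II invariant chain, rose from 8.02 ± 0.735 to 40.6 ± 1.59 CPM (SD, n = 5 per group), 5.05-fold (edgeR adjusted p = 1.32e-27). CD74, the invariant chain itself, rose from 2.29 to 4.57 CPM and HLA-DPA1 from 3.15 to 5.56 CPM. HLA-DPB1 went from 6.34 to 8.32 CPM with overlapping groups (adjusted p = 0.00524), and HLA-DMA, a peptide exchange chain, did not pass at 1.44 and 1.24 CPM.

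The list of genes that remove or degrade class I chains held 11 names for 9 genes, all tested. Past the threshold, 3 went up and 2 down (median log2 fold change 0.04). These shares were near the 28.6% up and 27.5% down of all genes tested. HM13, the signal peptide peptidase that also frees the leader peptides shown by HLA-E, rose from 157 to 186 CPM (edgeR adjusted p = 1.26e-07). The ubiquitin ligase genes SYVN1 and MARCHF9 rose with log2 fold changes of 0.19 each, with overlapping groups for MARCHF9. UBE2J1, the ubiquitin-conjugating enzyme of ER-associated degradation, fell from 121 to 91.3 CPM (log2 fold change -0.41, adjusted p = 1.78e-11), and RNF5, a membrane ubiquitin ligase, fell by 0.14 on the log2 scale with overlapping groups.

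Except for B2M, the 8 genes lie in a stretch of 3.59 Mb of chromosome 6 (29722775 to 33314387, GRCh38). Of the 84 genes counted there, 26 rose and 17 fell. Without the class I and loading genes 77 remained, of which 19 rose (24.7%) and 17 fell (22.1%). Outside all lists 69 genes remained, of which 13 rose (18.8%), 16 fell (23.2%) and 40 missed the threshold (median log2 fold change -0.03). These shares are below the background of 28.6% higher and 27.5% lower. The lists were chosen with earlier results known, so leaving them out can lower the share that rose. A general rise of the stretch was not tested. Among these 69, the largest rises past the threshold were those of LTB (lymphotoxin beta) from 0.436 to 0.984 CPM, POU5F1 (the factor OCT4) from 0.816 to 1.44 CPM, both scarce with overlapping groups, and GPSM3 (a G-protein regulator) from 9.38 to 13.0 CPM. The largest falls past the threshold were those of DDAH2 from 33.1 to 22.01 CPM, RGL2 from 48.4 to 34.2 CPM and ZBTB12 from 7.68 to 5.75 CPM.

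**Figure D4:**
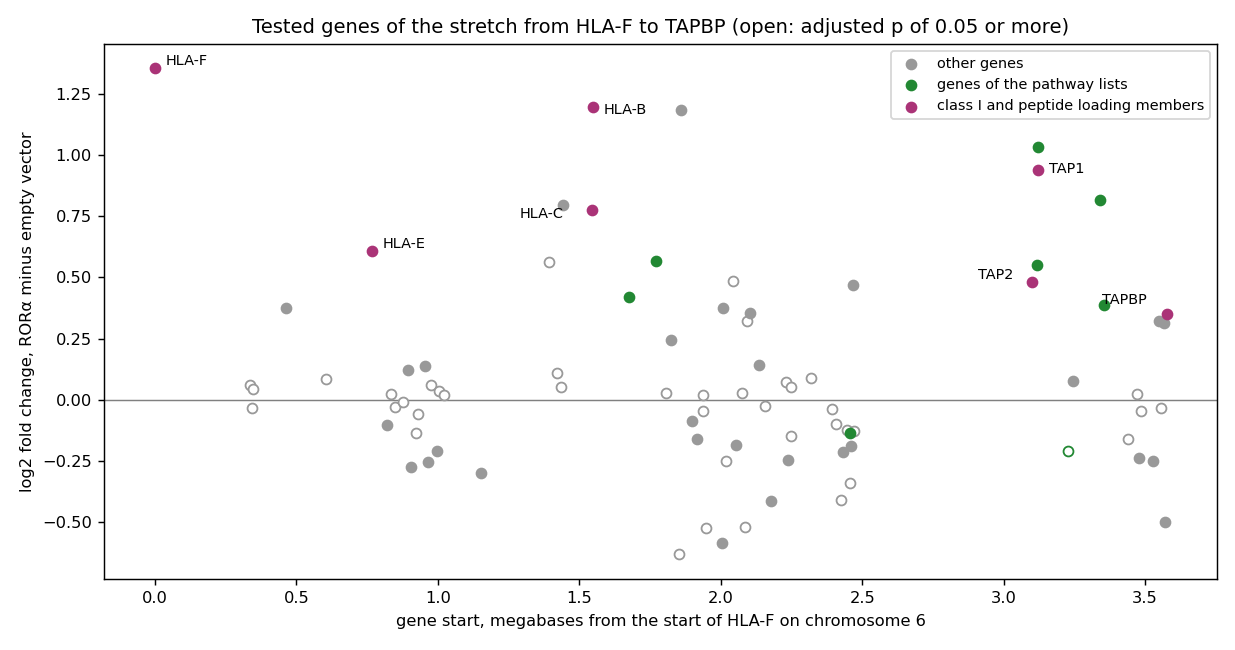
Log2 fold change of 84 tested genes of chromosome 6 from HLA-F to TAPBP against the distance of each gene's lower coordinate from that of HLA-F, in megabases. Filled points passed an adjusted p of 0.05. The class I and loading genes all lie above 0, and the genes outside the lists (grey) are spread on both sides of 0 with a median of -0.03.

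The 8 genes were also compared by their profile over the 10 libraries, each standardised on log2 CPM. The Euclidean distance to their mean profile was 0.287 for TAP1, 0.334 for B2M, 0.361 for HLA-B, 0.456 for HLA-E, 0.707 for HLA-C, 0.910 for HLA-F, 1.02 for TAP2 and 1.119 for TAPBP. Each of the 8 genes is part of that mean, which lowers its own distance, so these values are not on a par with those of other genes. The median distance over all genes was 4.45, over genes called higher 1.50, and the largest possible value is 6.32. The profiles outside the lists most like the mean were those of LAMB3 (0.129), a laminin chain, SLC12A7 (0.153), a potassium-chloride cotransporter, NFKB2 (0.156), the p100 precursor, TNIP1 (0.156), an A20-binding inhibitor of NF-κB signalling, and G0S2 (0.159), a lipase inhibitor. LAMB3 went from 479 to 1338 CPM and NFKB2 from 146 to 445 CPM. The profile mostly records the step between the groups, and 1152 other genes were nearer than TAPBP, so this likeness is common.

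Within groups, some genes ordered the libraries alike and others did not. TAP1 and TAPBP had the same order of RORα libraries, with OE3 highest and OE2 lowest, and OE2 was also lowest for HLA-B and HLA-E. EV4 was highest for HLA-B, HLA-E, TAP1 and TAPBP. HLA-C differed: OE1 was 14.1% below the RORα mean for HLA-C, and OE2 was 10.4% above it for HLA-C but 10.1% below for HLA-B, while OE3 was 12.2% above for HLA-B. With RORα the HLA-B to HLA-C ratio ran accordingly from 1.82 in OE2 to 2.65 in OE1.

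Of 16 lens markers, 6 were tested, of which 2 fell and 4 did not pass, beside 27.5% called lower among all genes tested. PAX6, the eye-field transcription factor, stood at 19.6 and 20.9 CPM and did not pass, nor did CRYGS at 4.20 and 4.71 CPM, SIX3 at 7.99 and 8.05 CPM and GJA1 at 53.2 and 55.8 CPM. CRYAB and BFSP1, a crystallin and a beaded filament gene, fell (CRYAB from 1.43 to 0.370 CPM, BFSP1 from 7.51 to 4.80 CPM), and the crystallin CRYAA and the water channel gene MIP were not among the genes tested. Of 15 immune cell markers, 2 were tested. CD14 fell from 2.98 to 1.49 CPM, CSF1R went from 1.77 to 1.28 CPM (edgeR adjusted p = 0.0780), and PTPRC, the pan-leukocyte marker CD45, was not among the genes tested. The summed level of the immune markers was 4.09 to 5.70 CPM in the empty plasmid and 2.16 to 3.12 CPM in the RORα libraries. This sum holds CD14 and CSF1R alone, both scarce, and whether immune cells were present was not tested.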

How the data were processed

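Poly-T selected RNA of 10 libraries was sequenced. The submitters' processing notes name HISAT2 2.2.1, HTSeq and GRCh38 but no annotation release. The table that the authors deposited holds raw counts and FPKM per gene and library, per the file headers. No column belonged to other samples (0). filterByExpr (minimum count 10, minimum total 15) retained 12520 of 12540 genes. Raw counts were scaled by TMM factors and fitted with edgeR 4.0.16 (quasi-likelihood, two-sided, Benjamini-Hochberg) in R 4.3.3, with 95% intervals. The FPKM values that the authors deposited were used in limma 3.58.1 alternatives, with pseudocounts of 1 and 0.1. Other alternatives were DESeq2 1.42.0, its size factors, upper-quartile factors, no filter, a replicate block and leaving out each library. The edgeR fit was tested on simulated data. Positions and lengths came from GENCODE 29 (GRCh38) and promoters from RefSeq (GRCh38.p14).

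Groups came from the genotype label. The 8 genes and the gene lists were chosen with earlier results of these data known. A few list genes are not reported here: they stayed in the fits and background counts but were left out of the lists, the chromosome 6 stretch and the figures. Named were the 8 genes, RORA, list genes, the 3 largest rises and 3 largest falls outside lists between HLA-F and TAPBP, and the 5 nearest profiles (log2 of CPM plus 0.5). Over 20 pairs within groups, counts differed with a chi-square of 2.28 to 5.74 per degree of freedom, so no libraries were copies. Intervals cover the spread between libraries, and reads carried no molecular identifiers.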

Additional observations from a re-analysis of the deposited data

Results flagged for a closer look

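The named genes and the 6 ratios gave 182 groups of 5 libraries. Of these, 10 held a library far from the rest of its group (a gap of more than 0.71 of the group's range, Dixon's 95% value). Chance gives about 1 in 20 groups. Among the class I genes, HLA-B in EV2 was low at 117 CPM (others 134 to 138) and B2M in OE5 was low at 1633 CPM (others 1693 to 1716). In the related lists, low libraries were PSMB8 in EV2 at 28.3 CPM (others 31.4 to 32.5), NLRC5 in OE4 at 41.6 CPM (others 47.3 to 49.1), HFE in OE3 at 11.2 CPM (others 12.8 to 12.9) and UGGT1 in EV4 at 184 CPM (others 188 to 189.6). High libraries were ATF1 in EV3 at 44.9 CPM (others 38.8 to 40.0), STAT2 in EV5 at 56.3 CPM (others 50.9 to 51.9) and HLA-DPA1 in EV2 at 3.89 CPM (others 2.91 to 3.09). SLC12A7 in EV4 was high at 37.8 CPM (others 35.1 to 35.6). EV2 held 3 of the 10 and no library was far from the others in most genes.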

How the results depend on the processing

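All 8 class I and loading genes stayed higher with RORα, at an adjusted p of 0.000135 or less, under each of the 17 alternatives (other scalings, DESeq2, no filter, a replicate block, 1 library fewer, or limma with FPKM). Log2 fold changes ranged from 1.06 to 1.23 for HLA-B, 0.70 to 0.82 for HLA-C, 0.58 to 0.63 for HLA-E, 0.90 to 0.92 for B2M and 0.76 to 0.96 for TAP1. Under limma on log2(FPKM + 1) the median over the 8 genes was 0.65 in place of 0.84, with HLA-F at 0.39, TAP2 at 0.25 and TAPBP at 0.23, since that pseudocount compresses low values. Genes called higher numbered 3393 to 3591 and lower 3137 to 3531 over the alternatives. The ratios kept their side of the threshold without any 1 library, HLA-B to HLA-C at a log2 difference of 0.37 to 0.50 and HLA-B to HLA-F at -0.29 to -0.10. With 4 against 5 libraries the smallest exact p is 0.0159. Scalings moved the median of all genes by under 0.1.

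The replicate numbers were not taken as a pairing: residuals of equally numbered libraries correlated at -0.049 to 0.054, and 2 of 10 libraries correlated best with their own number. With the replicate number as a block, 3544 genes were called higher and 3406 lower, all 8 class I and loading genes were higher, and their median log2 fold change was 0.84.

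HLA-F, PSMB10, CIITA and IRF9 rest on few reads, and the split among heavy chain genes depends on alignment to a single reference.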
